A study of Mus musculus with 16 samples.

Results

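The genes described here are 36 inflammatory genes of the NF-kB pathway, chosen by symbol for their place in the pathway from a table of 45706 gene IDs. The choice was made with earlier results of these data known, so counts and medians over the 36 are descriptions. They comprise the 5 NF-kB subunits, 6 inhibitor (IkB) family members, 4 further brakes on the pathway, 2 adaptors of tumour necrosis factor (TNF) receptors, 5 cytokines, 6 chemokines, 3 surface proteins, and 5 enzyme, stress and survival genes. All 36 symbols were found in the table, and all 36 passed the filter on low counts in every comparison. The table covers 16 RNA samples of mouse bone marrow, from a study of haploinsufficiency for Gata2, a zinc finger transcription factor that blood stem cells require.

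The samples fall into 6 groups by genotype label (WT or Gata2) and time label. At Day0 and Day2 the cells were LSK cells, which lack lineage markers, carry Sca-1 and Kit and include the blood stem cells, with 2 WT and 3 Gata2 libraries at Day0 (Day0_WT, Day0_Gata2) and 3 WT and 2 Gata2 libraries at Day2 (Day2_WT, Day2_Gata2). At Week2 they were bone marrow cells bearing CD45.2, a variant of the leukocyte protein that Ptprc encodes, with 3 libraries per genotype (Week2_WT, Week2_Gata2). The series describes small numbers of sorted LSK cells transplanted into lethally irradiated WT recipients. The labels state neither the Gata2 allele, the age or strain of the mice, nor what was done between Day0 and Day2. Nor do they say whether each library had its own donor animal, so a p-value here reflects library-to-library spread that could be technical. Gata2 itself was at 329 to 446 CPM (counts scaled to a common library size) in Day0_WT and 611 to 752 CPM in Day0_Gata2, at 259 to 291 and 491 to 737 CPM at Day2, and at 11.1 to 14.5 and 7.86 to 27.4 CPM at Week2. It was thus higher, not lower, in the LSK libraries labelled Gata2. A count per gene cannot tell which exons were read, and genotype differences are stated for the libraries by their label.

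NF-kB is a family of dimeric transcription factors held inactive in the cytoplasm by IkB proteins. Signals from TNF, interleukin-1 and Toll-like receptors activate a kinase complex that marks IkB for destruction, and the freed dimers enter the nucleus and bind kappaB sites. Among the genes they induce are cytokines, chemokines and survival factors, and also their own inhibitors such as Nfkbia and Tnfaip3, which close a negative feedback loop. In blood stem and progenitor cells the pathway is known for its part in the response to inflammation and to transplantation stress.

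The window of 250 bases before a RefSeq transcript start, for each member the one nearest its GENCODE gene start, was searched on both strands for the kappaB consensus, a motif of 10 letters, in RefSeq's promoter table (GRCm38.p6, the build of mm10). In 15 of the members with a window that start lies inside the GENCODE gene, so the window need not be the gene's main promoter. Of the 36 genes, 29 had a window, and 13 of those (44.8%) held a match, against 7.25% of the 32851 windows of all genes. The genes were listed as NF-kB genes, so this share is a description. The sequences below are those of the 6 genes with a match and the lowest Day2 genotype p-values, shown so that the matched letters can be read beside these genes' Day2 values. Other genes of low p have no window (among them Ccl4, Nfkbiz and Relb) or no match (Ccl3, Traf1, Ptgs2 and Bcl3) and are not shown. Capitals mark the match, or overlapping matches merged, and bases within annotated exons are left out. They lie at chr12:55492648-55492897 (Nfkbia, minus strand), chr6:65590148-65590397 (Tnip3, plus), chr17:35194257-35194438 (Ltb, plus), chr10:19015411-19015432 (Tnfaip3, minus), chr5:90903649-90903870 (Cxcl2, plus) and chr5:90890995-90891240 (Cxcl1, plus).
Nfkbia: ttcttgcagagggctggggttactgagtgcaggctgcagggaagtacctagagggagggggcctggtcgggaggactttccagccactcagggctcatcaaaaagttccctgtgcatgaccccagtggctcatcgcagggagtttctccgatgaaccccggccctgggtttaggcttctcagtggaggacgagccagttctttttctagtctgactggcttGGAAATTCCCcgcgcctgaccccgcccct
Tnip3: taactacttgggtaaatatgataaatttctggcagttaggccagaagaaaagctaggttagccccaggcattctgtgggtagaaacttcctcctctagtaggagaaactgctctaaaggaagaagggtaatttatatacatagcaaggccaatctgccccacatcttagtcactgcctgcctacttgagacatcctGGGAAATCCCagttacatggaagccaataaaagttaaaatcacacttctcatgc
Ltb: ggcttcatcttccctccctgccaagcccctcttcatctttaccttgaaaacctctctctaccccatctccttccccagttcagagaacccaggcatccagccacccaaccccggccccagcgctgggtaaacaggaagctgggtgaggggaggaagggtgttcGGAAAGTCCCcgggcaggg
Tnfaip3: aatttccatcGGAAATCCCCct
Cxcl2: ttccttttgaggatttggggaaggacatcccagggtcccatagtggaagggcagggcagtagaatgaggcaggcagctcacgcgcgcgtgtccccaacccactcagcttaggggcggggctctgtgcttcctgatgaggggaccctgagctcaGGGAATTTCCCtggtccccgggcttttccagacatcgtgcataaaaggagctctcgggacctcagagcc
Cxcl1: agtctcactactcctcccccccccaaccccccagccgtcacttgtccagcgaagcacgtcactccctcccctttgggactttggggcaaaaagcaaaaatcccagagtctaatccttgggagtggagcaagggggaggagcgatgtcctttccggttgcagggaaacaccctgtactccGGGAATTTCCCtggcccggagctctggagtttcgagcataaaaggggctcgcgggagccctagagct
The match began 29 bases before the RefSeq start in Nfkbia, 54 in Tnip3, 71 in Cxcl1, 87 in Ltb and 97 in Cxcl2. For Tnfaip3, which had 2 separate matches in its window, only a stretch of 22 bases around the site outside annotated exons is printed. The start used lies 65085 bases inside the GENCODE gene for Tnip3 and 247 bases inside for Tnfaip3, so both sequences are internal to the gene. The matches in Cxcl1 and Cxcl2, neighbouring chemokine genes on chromosome 5, had the same letters.

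Total counts ran from 19618830 to 68305582 in the LSK libraries and from 176933583 to 320717267 at Week2. Day0_WT replicate 1, with the lowest total, stood apart from the other LSK libraries, and 9.33% of its counts fell on 4 genes rich in repeat sequence, against 6.51% in Day0_WT replicate 2 and 5.10% to 5.83% in Day0_Gata2. By Y-linked counts, Day0_WT replicate 2, Day0_Gata2 replicate 3 and Week2_Gata2 replicate 3 were female and the other libraries male. All 7 LSK markers fixed for this check (Kit, Ly6a, Cd34, Flt3, Slamf1, Procr and Ptprc) had counts in each LSK group, with a summed level of 1369 to 2371 CPM. The LSK libraries also held RNA of monocyte and macrophage markers (10 genes, summed level 622 to 2416 CPM) and of neutrophil markers (9 genes, 78.5 to 1738 CPM). In these bulk samples, fewer cells of a type and less RNA per cell cannot be told apart. The Week2 libraries held high levels of mature cell markers and differed widely within each genotype, with summed neutrophil markers of 17849 to 79408 CPM in WT and 18723 to 90658 CPM in the libraries labelled Gata2.

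Levels are CPM with TMM scaling, and the LSK and Week2 libraries were scaled separately, so levels are not compared between the 2 sets. Per kilobase of exon, the gene with the highest mean at Day0 was Ccl4, at 239 CPM per kb in WT and 111 in the libraries labelled Gata2, followed by Ccl3 at 197 and 89.0 and Nfkbia at 84.0 and 87.3. At Day2 Ccl4 was no longer among the leading genes. Nfkbia (68.1 CPM per kb) and Rela (54.3) led in Day2_WT, and Rela (56.7) and Nfkbia (33.1) in Day2_Gata2. At Week2 Nfkbia was highest at 308 CPM per kb in WT and 339 in the libraries labelled Gata2, followed by Ltb at 102 in both. Cxcl1, a neutrophil-attracting chemokine, was at or below 0.13 CPM per kb in every group.

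The Day2 comparison asked how LSK cells of the 2 genotypes differed at that time. In 23 of the 36 genes every library labelled Gata2 lay below every WT library, and in none did every one lie above, while the groups overlapped in 13. Over all 19162 genes tested, 11.1% were separated in the lower direction and 9.96% in the higher. Because the 36 were listed with earlier results of these data known, the counts here describe the list. The log2 fold change was negative in 32 of the 36 (50.1% of all genes), with a median of -0.75, against a median near 0 for all genes. None of the 36 passed edgeR's quasi-likelihood test, with p-values adjusted over all genes by the Benjamini-Hochberg (BH) method, and 0% of all genes did. At an unadjusted p under 0.05, 16 were lower and 0 higher, against 2.79% and 2.8% of all genes. DESeq2 called 10 of the 36, all lower (Relb, Nfkbia, Nfkbiz, Tnfaip3, Tnip3, Traf1, Ltb, Ccl4, Cxcl2 and Ptgs2), and 0.751% of all genes. limma voom called 1 (Nfkbia) and 0.120%. Without Day0_WT replicate 1, a library of neither Day2 group, 19996 genes passed the filter and edgeR called Nfkbia, Ccl4 and Cxcl2 (0.240% of all genes). Without Day0_WT replicate 2 it called Nfkbia and Cxcl2 (0.148%).

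**Figure D1:**
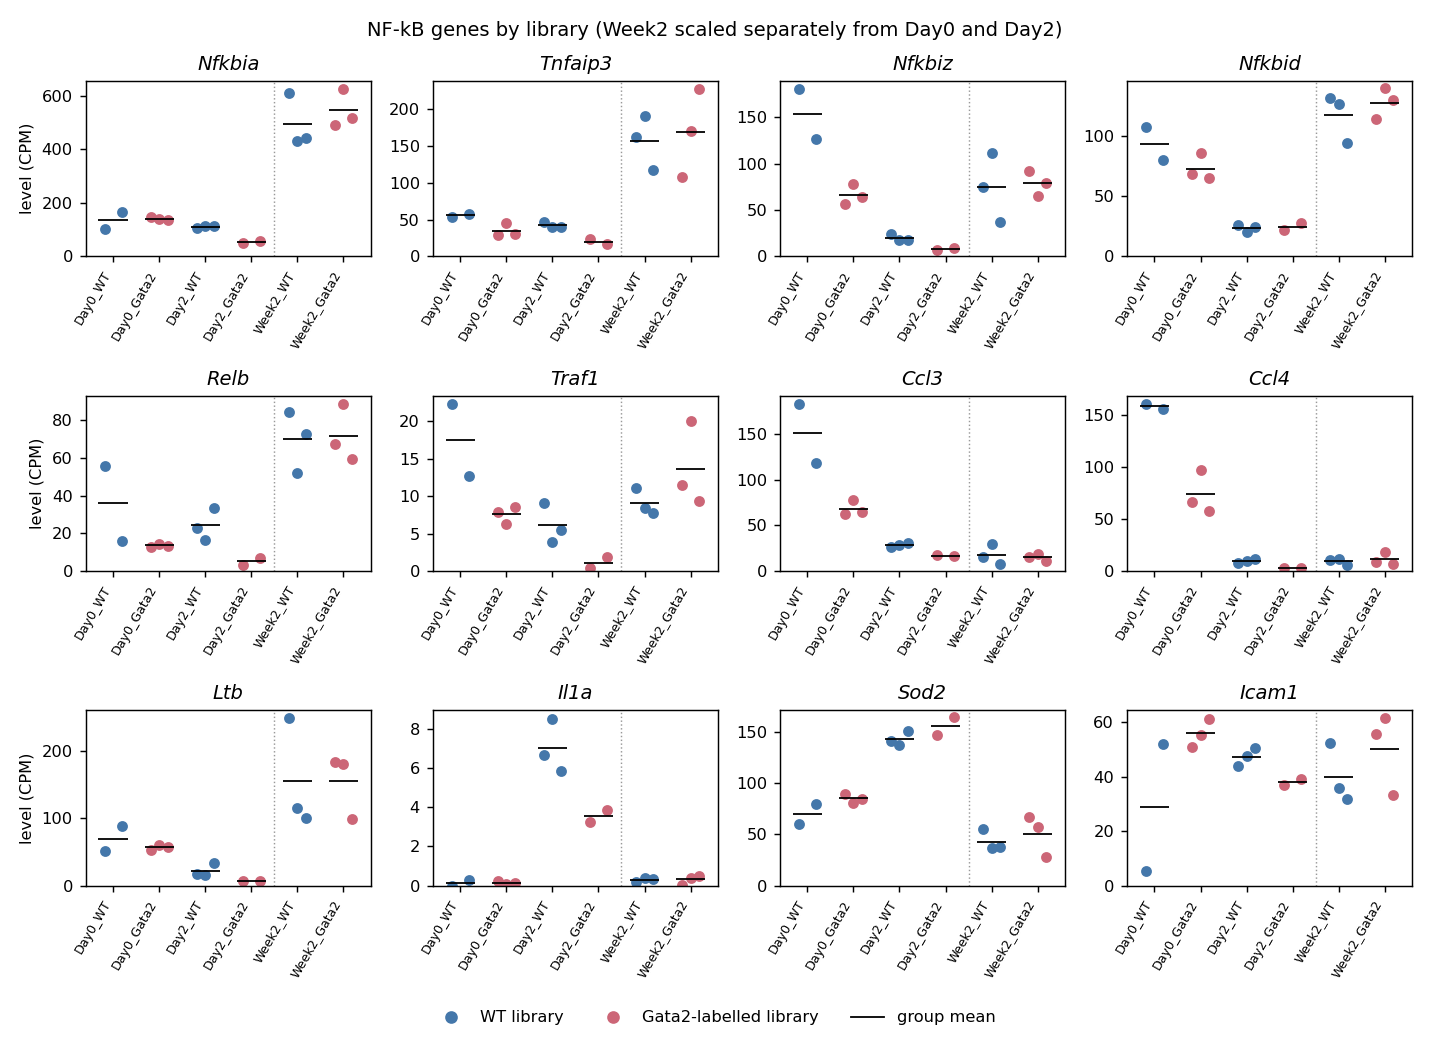
Level of 12 NF-kB genes in each of the 16 libraries (CPM, linear axis from 0), with WT libraries in blue, libraries labelled Gata2 in red, the group mean as a line, and Week2, scaled separately, right of the dotted line. At Day2 the libraries labelled Gata2 sit below the WT libraries for Nfkbia (50.9 and 55.6 against 106 to 112 CPM), while those of Sod2 and Nfkbid overlap.

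Among the inhibitors, Nfkbia (chromosome 12, 55489410 to 55492647, minus strand, mm10), which encodes IkB alpha, was at 106, 112 and 111 CPM in Day2_WT and at 50.9 and 55.6 CPM in Day2_Gata2. The WT libraries lay close together and the libraries labelled Gata2 lay well below them, at a log2 fold change of -1.04 (SE 0.19, BH-adjusted p = 0.332). Nfkbiz, a nuclear IkB protein that promotes transcription of secondary response genes, was at 23.9, 17.2 and 17.5 CPM against 6.38 and 9.43 CPM, a log2 fold change of -1.30 (SE 0.27, BH-adjusted p = 0.415). Bcl3, another nuclear member, was at 19.99, 18.6 and 23.7 CPM against 10.4 and 14.5 CPM, also without overlap. The other 3 inhibitors overlapped between genotypes. Nfkbid had means of 23.5 and 24.7 CPM in WT and in the libraries labelled Gata2, Nfkbib 71.7 and 64.7 CPM, and Nfkbie 34.2 and 29.7 CPM. Of the 6 inhibitors, 3 were thus separated and 3 overlapped, while 11.1% of all genes were separated in the lower direction.

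Of the 4 other brakes, Tnfaip3 (chromosome 10, 19000910 to 19015657, minus strand), a ubiquitin-editing enzyme that shuts the pathway off, was at 47.1, 40 and 40.2 CPM in Day2_WT and at 23.2 and 16.3 CPM in Day2_Gata2, a log2 fold change of -1.10 (SE 0.25, BH-adjusted p = 0.444). Tnip3, a protein that binds the Tnfaip3 product, was at 26.3, 20.2 and 34.5 CPM against 10.2 and 7.79 CPM, a log2 fold change of -1.59 (SE 0.32, BH-adjusted p = 0.408). For both, the WT libraries and those labelled Gata2 did not overlap. Their partner Tnip1 and the RNase gene Zc3h12a overlapped, with means of 96.1 and 81.4 CPM and of 13.7 and 9.99 CPM. Of the adaptors, Traf1 was at 9.02, 3.91 and 5.53 CPM against 0.375 and 1.87 CPM, and Birc3 at 44.8, 37.9 and 52.8 CPM against 36.4 and 34.5 CPM. Both adaptors were separated, by a log2 fold change of -2.45 (SE 0.68) and of -0.35 (SE 0.24).

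The subunits were divided. Relb, the partner of the Nfkb2 product in the non-canonical pathway, was at 23.02, 16.6 and 33.5 CPM in Day2_WT and at 3.08 and 7.06 CPM in Day2_Gata2, a log2 fold change of -2.27 (SE 0.58, BH-adjusted p = 0.629). Nfkb2 was at 62.6, 47.9 and 61.2 CPM against 32.4 and 40.3 CPM, a log2 fold change of -0.65 (SE 0.30). Both subunits of the non-canonical dimer were thus lower without overlap. The other 3, which form the canonical dimers, overlapped: Rela had means of 167 and 174 CPM, Nfkb1 205 and 219 CPM, and Rel 31.8 and 26.5 CPM in WT and in the libraries labelled Gata2.

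All 6 chemokines and all 5 cytokines had a negative log2 fold change, and 5 and 4 of them were separated. Over all genes tested, 50.1% were negative and 11.1% were separated in the lower direction. Ccl4 (chromosome 11, 83662584 to 83664683, plus strand), a chemokine for monocytes and T cells, was at 7.52, 9.26 and 11.9 CPM in Day2_WT and at 2.73 and 2.94 CPM in Day2_Gata2. Its log2 fold change was -1.75 (SE 0.28), and its adjusted p of 0.194 was the lowest of the 36. Its neighbour Ccl3 was at 26.1, 28.8 and 30.9 CPM against 17.7 and 15.9 CPM, a log2 fold change of -0.76 (SE 0.21, BH-adjusted p = 0.643). Ccl2, which recruits monocytes, was at 3.77, 3.67 and 3.57 CPM against 0.336 and 0.690 CPM. The 3 CC chemokines were each separated.

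The neutrophil chemokines were near the limit of detection in the Day2 libraries labelled Gata2. Cxcl2 had 3 reads in the 2 libraries labelled Gata2 and 216 in the 3 of WT, a ratio of levels of 48.0 (95% interval 16.2 to 235, counting error only). Cxcl1 had 0 reads in the libraries labelled Gata2 and 36 in those of WT, at 1, 16 and 19 per library. It thus counts as separated by 1 read in Day2_WT replicate 1. Taking 3 counts per library as the floor, its WT mean was 4.07-fold above that floor, but Day2_WT replicate 1 lay below it. Since the reads carry no molecular identifiers, they need not stem from separate molecules, and the interval and the floor cover counting error alone. Cxcl10, an interferon-inducible chemokine, overlapped at 2.04, 2.17 and 2.64 CPM against 2.69 and 0.887 CPM.

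Of the cytokines, Ltb (chromosome 17, 35194439 to 35196320, plus strand), which forms the lymphotoxin complex on the cell surface, was at 17.2, 15.6 and 33.5 CPM in Day2_WT and at 7.07 and 6.25 CPM in Day2_Gata2, a log2 fold change of -1.73 (SE 0.37, BH-adjusted p = 0.420). Il1a was at 6.64, 8.51 and 5.83 CPM against 3.24 and 3.85 CPM, and Il1b at 15.1, 21.9 and 17.3 CPM against 8.26 and 10.9 CPM. Both interleukin-1 genes were separated, with SEs of 0.78 and 0.71 around log2 fold changes of -0.98 and -0.92. Tnf was separated by a small distance, at 7.61, 8.59 and 8.07 CPM against 5.55 and 7.55 CPM. Il6 overlapped at 0.247 to 1.07 CPM.

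Among the surface genes, Cd83, a marker of activated dendritic cells, was at 2.86, 2.75 and 3.25 CPM in Day2_WT against 1.26 and 0.414 CPM in Day2_Gata2. The adhesion molecule Icam1 was at 43.8, 47.6 and 50.4 CPM against 36.98 and 39.3 CPM, and the TNF receptor family member Cd40 was at 0 in 3 of the 5 libraries. Ptgs2, the inducible prostaglandin synthase, was at 8.59, 2.84 and 4.09 CPM against 0.375 and 0.789 CPM, a log2 fold change of -3.15 (SE 0.91). Gadd45b, a stress response gene, was at 10.2, 13.3 and 16.9 CPM against 8.20 and 8.44 CPM. These were separated except for Cd40. Sod2, the mitochondrial superoxide dismutase, was not lower, at 141, 138 and 151 CPM against 147 and 165 CPM (log2 fold change 0.12, SE 0.15). Bcl2a1b and Bcl2a1d, near-identical survival gene copies whose reads may be shared, were at or below 0.761 CPM, and only Bcl2a1d was separated.

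**Figure D2:**
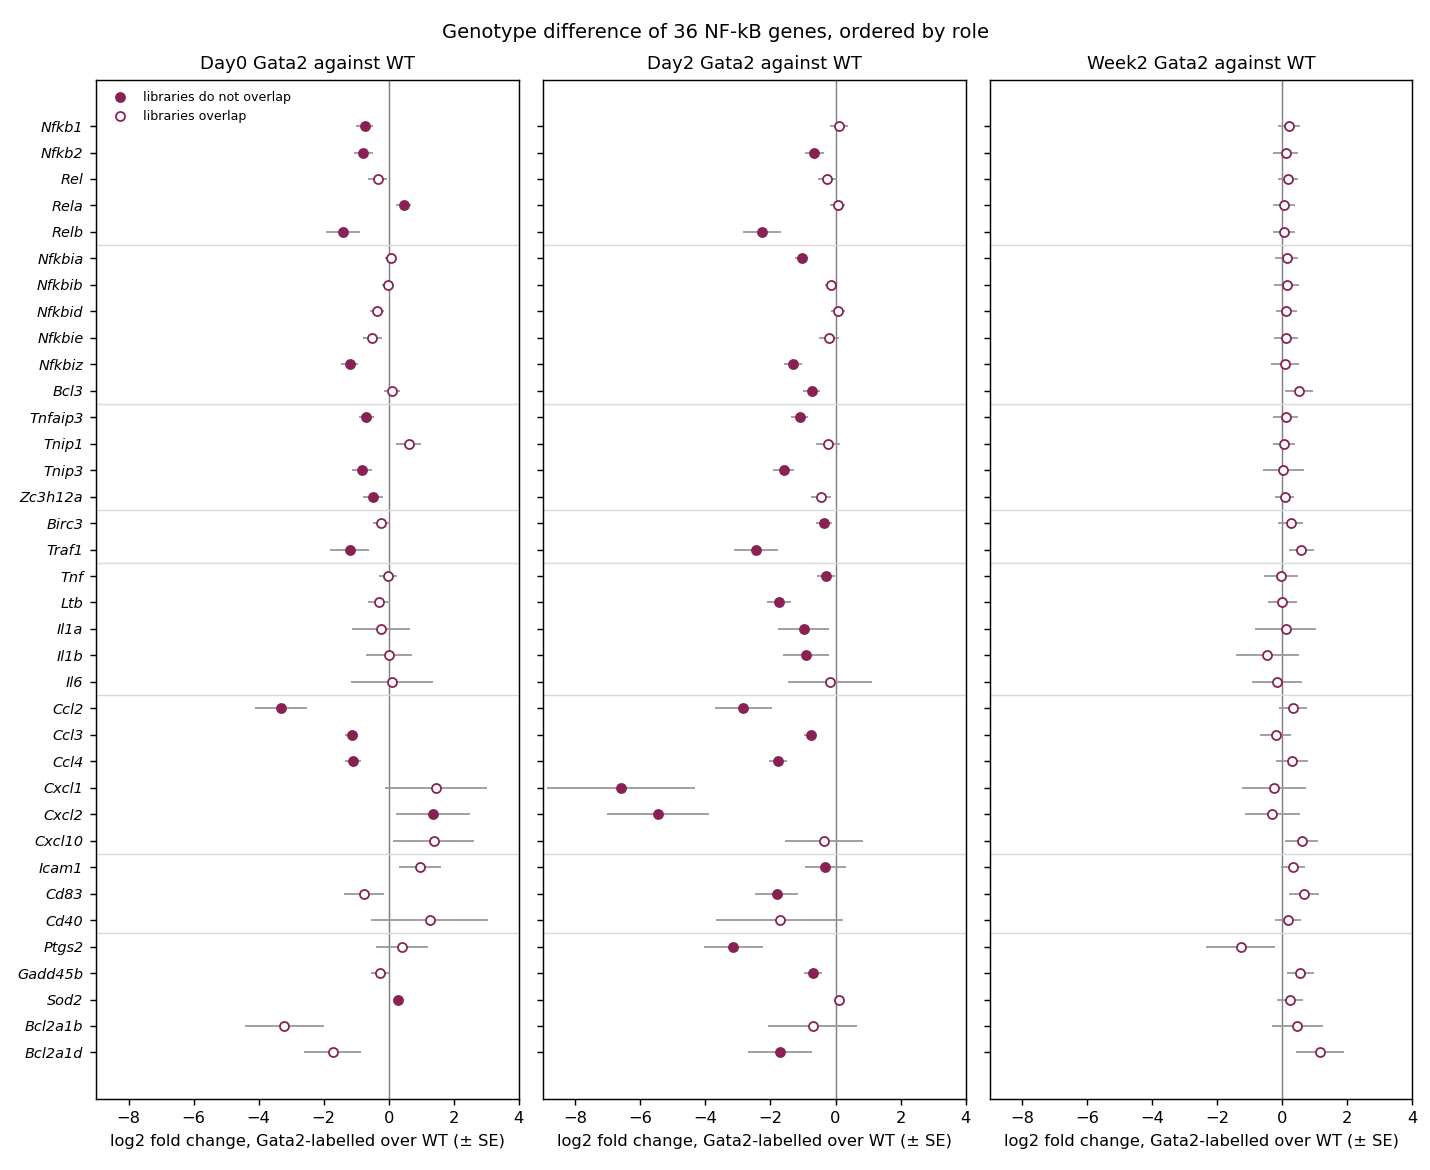
Log2 fold change of each of the 36 genes in the libraries labelled Gata2 over WT at Day0, Day2 and Week2 (bars are SE), with genes grouped by role between the grey lines and filled points where no library of one group lies within the other. Filled points left of 0 number 11 at Day0, 23 at Day2 and 0 at Week2. Over all genes tested, 14.2%, 11.1% and 0.737% were separated in the lower direction at these times.

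Markers of other cell types at Day2 stood as follows. The summed monocyte and macrophage markers were 1558 to 2416 CPM in WT and 1393 to 1597 CPM in the libraries labelled Gata2, and the neutrophil markers 886 to 1738 and 624 to 986 CPM, both with overlap. Of the 10 monocyte markers 2 were separated in the lower direction and 1 in the higher, and of the 9 neutrophil markers 3 in the lower. Over all genes tested, 11.1% were separated in the lower direction and 9.96% in the higher. Dendritic cell markers overlapped at 33.2 to 39.4 and 33.4 to 48.5 CPM, and the 8 T and NK cell markers at 106 to 144 and 127 to 151 CPM. Of these 8, Nkg7 was at 105 to 142 CPM in WT and at 126 and 150 CPM in the libraries labelled Gata2. The T cell genes Cd3e, Cd3g and Cd8a were at 0 in both groups. Summed erythroid markers did not overlap, at 35.5 to 43.1 CPM in WT and 21.7 to 30.3 CPM in the libraries labelled Gata2, with 4 of 7 separated in the lower direction. Nor did those of stroma and endothelium, at 0.399 to 0.749 and 0.830 to 1.06 CPM. Mast cell markers (108 to 152 and 152 to 173 CPM) and B cell markers (94.1 to 151 and 143 to 147 CPM) overlapped. The mitochondrial share of counts was 1.01% to 1.11% in WT and 1.22% and 1.41% in the libraries labelled Gata2, without overlap. The part of these cells and of this share in the differences above was not tested. Genes of the TEC class (unverified transcripts) held 0.0314% to 0.0582% of counts in Day2_WT and 0.0648% and 0.0702% in Day2_Gata2, and with this TEC share in the model the members' median was -0.80 and Nfkbia passed.

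The Day2 values of genes with and without a kappaB match in the window were set side by side. Of the 13 genes with a match, 7 were separated in the lower direction at Day2 and their median log2 fold change was -0.65. Of the 16 with a window and no match, 11 were separated in the lower direction and the median was -0.70. Over all genes tested, 11.1% were separated in the lower direction. Ptgs2, for example, was among the separated genes and had no match in its window, which says only that these letters are not there.

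At Day0, before the interval, fewer of the genes were separated. In 11 of the 36 every library labelled Gata2 lay below both WT libraries, and in 3 above (Rela, Cxcl2 and Sod2), against 14.2% and 18.3% of all genes, and 22 overlapped. The median log2 fold change was -0.28 (0.02 for all genes), with 24 of 36 negative (48.6% of all genes). None passed edgeR's test, in which 0% of genes were called. At an unadjusted p under 0.05, 10 were lower and 0 higher, against 9.17% and 4.33% of all genes. DESeq2 called Nfkbiz, Ccl2, Ccl3 and Ccl4, all lower, and 1.99% of all genes. limma voom called 0 of 36. Without Day0_WT replicate 2, edgeR called 18 of the 36 and 39.9% of all genes. Without replicate 1 it called 0 and the median was -0.13. Beside these values, summed dendritic cell markers were 25.02 to 25.9 CPM in Day0_WT and 18.9 to 19.3 CPM in Day0_Gata2, and LSK markers 1879 to 1952 and 2114 to 2371 CPM, both without overlap. Those of monocytes (829 to 1672 and 622 to 1354 CPM) and neutrophils (78.5 to 176 and 160 to 282 CPM) overlapped. The mitochondrial share was 2.01% and 0.641% in Day0_WT and 0.462% to 0.653% in Day0_Gata2, and the part of these in the Day0 differences was not tested.

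The Day0 genes of lowest p included chemokines and brakes on the pathway. Ccl3 was at 183 and 118 CPM in Day0_WT and at 62.5, 77.4 and 64.6 CPM in Day0_Gata2, a log2 fold change of -1.15 (SE 0.20, BH-adjusted p = 0.341). Ccl4 was at 160 and 155 CPM against 66.3, 96.7 and 57.1 CPM (-1.11, SE 0.25), and Nfkbiz at 180 and 126 CPM against 56.9, 78.2 and 63.8 CPM (-1.21, SE 0.25). In these 3 genes both WT libraries lay above all of the libraries labelled Gata2, and without Day0_WT replicate 1 the log2 fold changes were -0.80, -1.08 and -0.93. Tnfaip3 was at 53.8 and 57.7 CPM against 28.6, 45.05 and 30.1 CPM (-0.69, SE 0.24), and Tnip3 at 12.9 and 17.3 CPM against 6.99, 9.87 and 8.77 CPM (-0.82, SE 0.30). Those of Tnfaip3 and Tnip3 were -0.74 and -1.02 without that library.

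Other Day0 differences rested on Day0_WT replicate 1. Nfkb1 was at 381 CPM in that library and at 168 CPM in Day0_WT replicate 2, against 168, 159 and 166 CPM in Day0_Gata2, and Nfkb2 was at 105 and 47.9 CPM against 42.1, 43.0 and 47.5 CPM. Their log2 fold changes of -0.74 (SE 0.27) and -0.79 (SE 0.29) became -0.03 and -0.12 without it. Relb, at 55.9 and 15.9 CPM against 12.9 to 14.3 CPM, went from -1.40 to -0.23 in the same way. Ccl2 was at 6.96 and 0.960 CPM against 0.211 to 0.557 CPM, and its log2 fold change of -3.31 (SE 0.79) became -1.29. The same library was low in Icam1 (5.51 CPM against 51.9 CPM in replicate 2) and had no read of Il6 or Cxcl10. It also held the highest Bcl2a1b and Bcl2a1d levels of the 10 LSK libraries, at 4.497 and 7.54 CPM. Nfkbia overlapped between genotypes at Day0, at 104 and 166 CPM in Day0_WT and 146, 138 and 137 CPM in Day0_Gata2. Tnf was at 9.76 to 11.8 CPM in all 5 Day0 libraries.

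The other genes at Day0 lay on both sides of 0. Sod2 was at 60.6 and 79.7 CPM in Day0_WT and 89.6, 81.1 and 85.1 CPM in Day0_Gata2, and Rela at 106 and 189 CPM against 194, 209 and 205 CPM, both separated in the higher direction. Cxcl2 was at 0.0484 and 3.61 CPM against 3.91, 4.996 and 5.34 CPM, which placed it higher at Day0 and lower at Day2 in the libraries labelled Gata2. Traf1 (22.3 and 12.7 CPM against 6.27 to 8.59 CPM) and Zc3h12a (32.1 and 22.7 CPM against 18.2 to 22.2 CPM) were separated in the lower direction. Ltb, at 50.8 and 87.9 CPM against 52.0 to 60.5 CPM, overlapped, as did Nfkbid, Nfkbib, Nfkbie, Rel, Birc3, Bcl3, Tnip1, Gadd45b, Cd83, Ptgs2 and Il1b. Cxcl1, Il1a and Cd40 were below 2 CPM in each Day0 library.

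A direct test of whether the genotype difference at Day2 departed from that at Day0 called none of the 36 in edgeR (0% of all genes). At an unadjusted p under 0.05, 6 were more negative at Day2 and 0 more positive, against 3.53% and 6.83% of all genes. The median difference was -0.42 (-0.06 for all genes), and 26 of 36 were negative (53.2% of all genes). Nfkbia had the lowest p, at a difference of -1.10 (SE 0.26, BH-adjusted p = 0.465), followed by Cxcl2, Ptgs2 and Ltb at -6.81 (SE 1.94), -3.55 (SE 1.20) and -1.44 (SE 0.50). Cxcl1, Bcl3, Nfkb1 and Ccl4 completed the 8 of lowest p, at -8.05 (SE 2.77), -0.84 (SE 0.35), 0.84 (SE 0.38) and -0.65 (SE 0.37). The fitted value of Cxcl1 depends on the prior count, since it had no read in Day2_Gata2, and that of Nfkb1 draws on the Day0_WT levels given above. Single libraries moved several of these values. Without Day0_WT replicate 2 the differences of Nfkbia, Cxcl2, Ptgs2 and Ltb were -1.62, -12.17, -5.62 and -2.03. Without Day0_WT replicate 1 those of Nfkbia and Ptgs2 were -0.79 and -2.77 and that of Nfkb1 was 0.15. Cxcl2 was at -10.4 without Day2_Gata2 replicate 1, Ltb at -0.96 without Day2_WT replicate 3 and Cxcl1 at -12.35 without Day0_WT replicate 2. DESeq2 called Nfkbia and Cxcl2 (1.15% of all genes) and limma voom none. Without Day0_WT replicate 2, edgeR called 13 of the 36 and 31.1% of all genes.

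**Figure D3:**
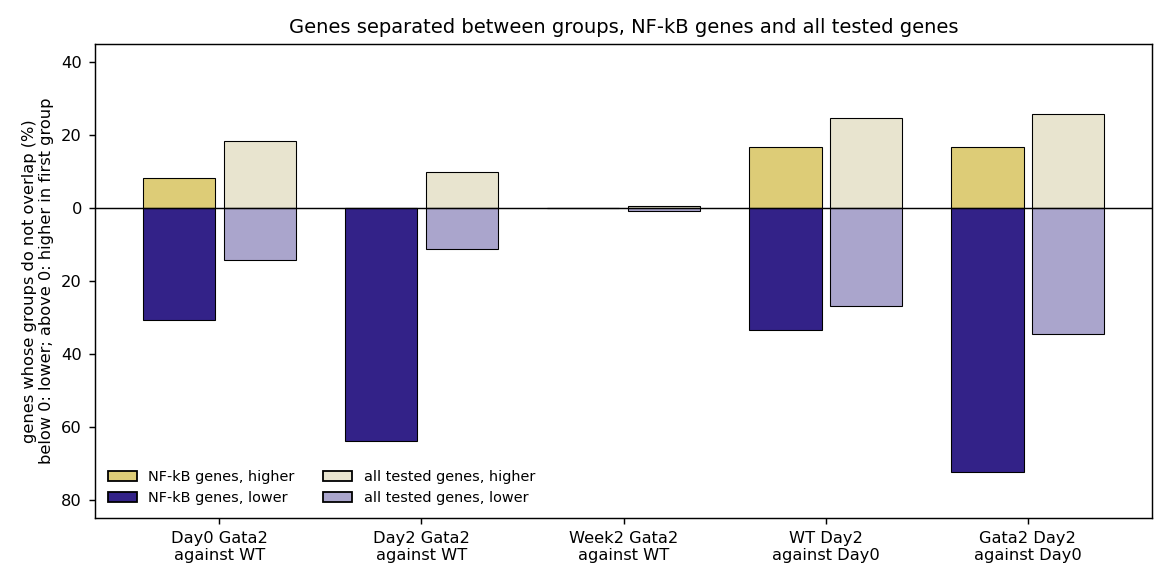
Percentage of the 36 NF-kB genes (saturated bars) and of all tested genes (pale bars) whose libraries do not overlap between the 2 groups of each comparison, drawn upward where the first group is higher and downward where it is lower. At Day2, 23 of the 36 genes are lower in the libraries labelled Gata2 against 11.1% of all genes. At Week2 none is separated, against 1.41% of all genes.

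From Day0 to Day2 the 2 genotypes shared part of their changes. In WT, 4 genes rose (Nfkbib, Il1a, Il1b and Sod2) and 8 fell (Nfkbid, Nfkbiz, Zc3h12a, Ltb, Ccl3, Ccl4, Bcl2a1b and Bcl2a1d) in edgeR's test, against 11.9% and 17.9% of all genes. Of the same 36 genes, 2 rose in the libraries labelled Gata2 (Il1a and Sod2) and 9 fell (Nfkbia, Nfkbid, Nfkbiz, Traf1, Ltb, Ccl3, Ccl4, Cxcl2 and Cd83), against 4.48% and 4.82% of all genes. Together 29.9% and 9.30% of all genes were called. The 7 genes called in both were Nfkbid, Nfkbiz, Ltb, Il1a, Ccl3, Ccl4 and Sod2. The groups did not overlap in 18 of the 36 genes in WT (51.5% of all genes) and in 32 in the libraries labelled Gata2 (60.3%), 26 of them in the lower direction (34.4%). The 2 comparisons share no library but share 1 fit and its estimate of spread. The median log2 fold change was -0.40 in WT (-0.11 for all genes) and -0.90 in the libraries labelled Gata2 (-0.07). With upper quartile scaling these were -0.56 (-0.26) and -0.95 (-0.12), and in WT the share of rises among all called genes went from 39.97% to 28.7%.

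Of the 6 chemokines, Ccl4 and Ccl3 fell in both genotypes. Ccl4 went from 160 and 155 CPM in Day0_WT to 7.52, 9.26 and 11.9 CPM in Day2_WT, a log2 fold change of -4.04 (SE 0.27, BH-adjusted p = 5.58e-05). In the libraries labelled Gata2 it went from 57.1 to 96.7 CPM down to 2.73 and 2.94 CPM, a log2 fold change of -4.69 (SE 0.32, BH-adjusted p = 8.18e-05). Ccl3 fell by 2.40 on the log2 scale (SE 0.20) in WT and by 2.02 (SE 0.22) in the libraries labelled Gata2. Both chemokines passed in each of the 10 fits that left out 1 library.

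Nfkbiz and Nfkbid, inhibitor family members that act in the nucleus, also fell in both genotypes. Nfkbiz had log2 fold changes of -2.97 (SE 0.26, BH-adjusted p = 0.000169) in WT and -3.07 (SE 0.29, BH-adjusted p = 0.000388) in the libraries labelled Gata2. Nfkbid went from 107 and 80.1 CPM in Day0_WT to between 20.4 and 25.6 CPM in Day2_WT (-1.99, SE 0.21). In the libraries labelled Gata2 it went from between 64.8 and 85.7 CPM to 21.99 and 27.4 CPM (-1.56, SE 0.22). Both genes passed in all 10 leave-one-out fits of each genotype. Nfkbia fell in the libraries labelled Gata2 (-1.40, SE 0.19, BH-adjusted p = 0.00276) and had a log2 fold change of -0.30 (SE 0.18, BH-adjusted p = 0.231) in WT. It did not pass in the former without Day2_Gata2 replicate 1 (adjusted p = 0.0577), and it passed in WT without Day0_WT replicate 1 (-0.63, adjusted p = 0.00565). The test of the difference between these 2 changes is the one given above for Nfkbia, which edgeR did not call.

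Il1a and Sod2 rose in both. Il1a, which encodes interleukin-1 alpha, was at 0 and 0.274 CPM in Day0_WT and 0.0597 to 0.240 CPM in Day0_Gata2, and at 5.83 to 8.51 and at 3.24 and 3.85 CPM at Day2. Its log2 fold changes were 5.42 (SE 1.01, BH-adjusted p = 0.00547) in WT and 4.67 (SE 0.84, BH-adjusted p = 0.00937) in the libraries labelled Gata2. The related Il1b rose in WT from 2.22 and 4.17 CPM to between 15.1 and 21.9 CPM (2.49, SE 0.77, BH-adjusted p = 0.0381), and in the libraries labelled Gata2 its log2 fold change was 1.58 (adjusted p = 0.189). Sod2 went from 60.6 and 79.7 CPM to between 138 and 151 CPM in WT (1.03, SE 0.15) and from between 81.1 and 89.6 CPM to 147 and 165 CPM in the libraries labelled Gata2 (0.87, SE 0.14). Ltb went the other way, by -1.65 (SE 0.34, BH-adjusted p = 0.00812) in WT and -3.09 (SE 0.39, BH-adjusted p = 0.00200) in the libraries labelled Gata2. Without single libraries, Sod2 lost its call in the latter without either Day2_Gata2 replicate, and Il1a without Day0_Gata2 replicate 2 or 3 or Day2_Gata2 replicate 1 (adjusted p at most 0.0810 and 0.0579).

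The other calls over time held in fewer of these fits. In WT, Nfkbib, an inhibitor of canonical dimers, went from 44.0 and 49.7 CPM to between 67.0 and 77.5 CPM (0.61, SE 0.17, BH-adjusted p = 0.0267), and Zc3h12a from 32.1 and 22.7 CPM to between 11.9 and 15.4 CPM (-0.9966, SE 0.30, BH-adjusted p = 0.0343). Bcl2a1b and Bcl2a1d had log2 fold changes of -4.56 (SE 1.29, BH-adjusted p = 0.0272) and -2.68 (SE 0.90, BH-adjusted p = 0.0489), with Day0_WT replicate 1 far above replicate 2 in both, and 1.68 and 1.33 with the TEC share as a covariate. Without Day0_WT replicate 1, 9 genes passed in WT (22.97% of all genes), and Nfkbib, Zc3h12a, Il1b, Bcl2a1b and Bcl2a1d no longer did (adjusted p = 0.0876, 0.107, 0.133, 0.402 and 0.467). Each of these 5 passed in 3 to 6 of the 10 leave-one-out fits. Without Day0_WT replicate 2 the count in WT was 26 (57.1% of all genes), and without Day2_WT replicate 2 or 3 it was 7 (16.7% and 17.5%). In the libraries labelled Gata2 it was 24 without Day0_WT replicate 1 (24.3% of all genes), 22 without Day0_WT replicate 2 (21.2%) and 5 without Day2_Gata2 replicate 1 (2.29%). With the share of counts on repeat-rich genes as a covariate, 1 of the 36 passed in WT (0.903% of all genes). limma voom called 5 in WT (7.07% of all genes) and 14 in the libraries labelled Gata2 (21.5%), and DESeq2 17 (37.9%) and 19 (17.9%). In the libraries labelled Gata2, Traf1 (-2.75, SE 0.68), Cxcl2 (826 reads at Day0 and 3 at Day2, a ratio of levels of 163, interval 55.5 to 791) and Cd83 (-2.66, SE 0.70) passed in 4, 5 and 3 of the 10 leave-one-out fits of edgeR. Summed neutrophil markers also differed between these times, at 78.5 to 176 CPM in Day0_WT and 886 to 1738 CPM in Day2_WT, and at 160 to 282 and 624 to 986 CPM in the libraries labelled Gata2.

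Markers of other cells moved too. By edgeR's test, 6 of 9 neutrophil markers rose in WT and 2 of 9 in the libraries labelled Gata2, against 11.9% and 4.48% of all genes. At an unadjusted p under 0.05 these counts were 6 and 6, against 17.9% and 11.1% of all genes. Of the 7 B cell markers 5 fell in WT, with a summed level of 304 to 463 CPM at Day0 and 94.1 to 151 CPM at Day2, and 2 fell in the libraries labelled Gata2 (314 to 400 and 143 to 147 CPM). Over all genes, 17.9% fell in WT and 4.82% in the libraries labelled Gata2. At an unadjusted p under 0.05, 7 and 6 of the B cell markers fell, against 25.2% and 14.3% of all genes. The B cell markers stand beside the fall of Ltb, which B cells express. Falls in WT and in the libraries labelled Gata2 numbered 4 and 4 of 8 T and NK cell markers, 3 and 2 of 6 mast cell markers, 5 and 2 of 7 erythroid markers, 3 and 1 of 6 stromal markers, and 3 and 3 of 7 LSK markers. Of the 10 monocyte and macrophage markers, 2 rose in WT, and 1 rose and 1 fell in the libraries labelled Gata2. Among the 7 dendritic cell markers, 1 rose and 2 fell in WT, and 1 rose and 1 fell in the libraries labelled Gata2. The part of these cells in the changes of the 36 genes was not tested.

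**Figure D4:**
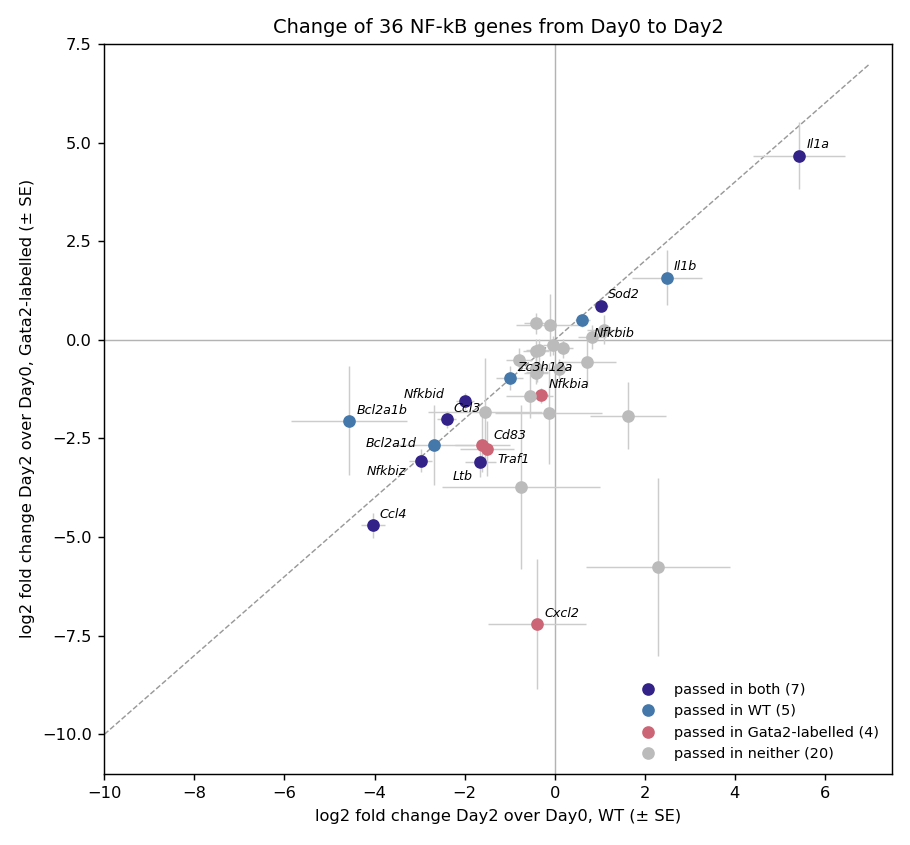
Log2 fold change from Day0 to Day2 of the 36 genes in WT (horizontal axis) and in the libraries labelled Gata2 (vertical axis), with SE as lines, the dashed line marking equal change, and colour showing in which genotype a gene passed edgeR's test. Of the 7 genes called in both, Ccl4 and Nfkbiz lie at the lower left and Il1a at the upper right. Genes below the dashed line include Ltb, called in both, and Cxcl2, called in the libraries labelled Gata2 alone.

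At Week2, in CD45.2 marrow cells, none of the 36 was separated between genotypes (1.41% of all genes were) and none passed edgeR's test (0% of all genes). At an unadjusted p under 0.05 the count was 0, against 0.238% of all genes. Nfkbia was at 611, 431 and 444 CPM in Week2_WT and at 492, 626 and 518 CPM in Week2_Gata2. Tnfaip3 was at 162, 191 and 117 CPM against 109, 170 and 228 CPM, and Relb at 84.7, 52.2 and 72.7 CPM against 67.4, 88.9 and 59.5 CPM. Each of the 3 overlapped broadly. Ltb, a gene that B cells express highly, had a mean of 154 ± 81.0 CPM (SD, n = 3) in WT and 154 ± 47.5 CPM in the libraries labelled Gata2, and Cd40, also a B cell gene, 47.9 ± 22.7 and 53.9 ± 14.0 CPM. The summed B cell markers ran from 6160 to 14287 CPM over the 6 libraries. Ccl3 had means of 17.1 ± 11.1 and 14.8 ± 3.85 CPM, and Ccl4 9.07 ± 3.37 and 11.1 ± 6.57 CPM. The log2 fold change was negative in 8 of 36 (49.9% of all genes), with a median of 0.11 (near 0 for all genes), and with upper quartile scaling in 17 of 36, with a median of 0.02.

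The spread within Week2 groups was large for Il1b and Ptgs2, both expressed by activated myeloid cells. Il1b was at 29.97, 220 and 5.44 CPM in WT and at 72.3, 68.7 and 44.6 CPM in the libraries labelled Gata2. Ptgs2 was at 2.25, 45.1 and 1.45 CPM against 6.19, 6.68 and 7.19 CPM, and its log2 fold change of -1.28 (SE 1.05) became 1.90 without Week2_WT replicate 2. The other genes among the 8 of lowest p were Bcl2a1d (1.15, SE 0.74), Traf1 (0.59), Cd83 (0.66), Gadd45b (0.56), Bcl3 (0.52), Cxcl10 (0.59) and Icam1 (0.33), each with an adjusted p of 1. Leaving out single libraries moved these values in either direction. Without Week2_WT replicate 1 the values of Bcl3, Traf1, Cd83, Cxcl10 and Icam1 were 0.95, 0.84, 1.32, 0.94 and 0.68. Without Week2_Gata2 replicate 2 those of Traf1, Cd83, Icam1 and Bcl2a1d were 0.20, 0.30, 0.15 and 0.12, and without Week2_Gata2 replicate 1 those of Bcl3 and Cxcl10 were 0.012 and 0.20. Gadd45b was at 0.18 without Week2_Gata2 replicate 3. limma voom with quality weights called 13 of the 36, all higher, among 35.3% of all genes, and DESeq2 called 0 (0.00274%). The TEC share of the Week2 libraries ran from 0.0541% to 0.316% and overlapped between genotypes.

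A comparison added after the data had been seen asked whether the genotype difference at Week2 departed from that at Day2, using all 16 libraries. The difference was negative in 1 of 36 genes (52.8% of all genes) and positive in 35, with a median of 1.10 (-0.03 for all genes). None passed edgeR's test (0% of all genes), and at an unadjusted p under 0.05, 14 were higher and 0 lower, against 1.49% and 1.59% of all genes. Nfkbia (1.14, SE 0.28), Traf1 (2.94, SE 0.72) and Relb (2.24, SE 0.57) had the lowest p, each with an adjusted p of 1. DESeq2 called Traf1 (0.151% of all genes), and limma voom Nfkbia, Traf1 and Ccl2 (1.43%). Cell type and time change together here and cannot be told apart, and the comparison shares its Day2 libraries with the Day2 comparison above.

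The receptors and signal transducers upstream of NF-kB, a list of 32 genes, lay on both sides of 0 at Day2. In the Day2 genotype comparison 18 were negative and 14 positive, with a median of -0.03, and 3 were separated in the lower direction and 4 in the higher (11.1% and 9.96% of all genes). None passed, and 0 had an unadjusted p under 0.05. Those of lowest p were Irak2 (-0.75), Tnfrsf1b (-0.45) and Tnfrsf11a (1.06), with adjusted p-values of 0.922, 0.922 and 0.928. At Day0 10 of the 32 were separated, all higher in the libraries labelled Gata2 (18.3% of all genes were higher and 14.2% lower), and none passed. At Week2 31 were positive and 1 negative (49.9% of all genes were negative), with a median of 0.11, and none was separated (1.41% of all genes were). How far these signs depend on the scaling was not tested for this list.

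Over time in WT, 6 of these upstream genes rose and 5 fell, against 11.9% and 17.9% of all genes. The TNF receptor gene Tnfrsf1b went from 90.4 and 92.6 CPM to between 233 and 317 CPM (log2 fold change 1.55, adjusted p = 0.00184). Myd88, the adaptor of Toll-like and interleukin-1 receptors, went from 32.4 and 52.6 CPM to between 95.5 and 110 CPM (1.26, adjusted p = 0.00341). Map3k14, the kinase of the non-canonical pathway, fell by 1.47 on the log2 scale (adjusted p = 0.00257). The other rises were those of Ikbkg (1.07), Irak3 (1.56), Map3k7 (0.66) and Irak2 (1.13), and the other falls those of Il18r1 (-3.11), Tab2 (-1.54), Ikbkb (-0.79) and Irak1 (-0.58). In Day0_WT replicates 1 and 2, Ikbkg was at 21.3 and 48.9 CPM and Irak3 at 7.59 and 36.2 CPM. Map3k7 was at 47.7 and 58.9 CPM there and Irak2 at 8.46 and 21.5 CPM. Il18r1 was at 15.0 and 3.25 CPM and Tab2 at 150 and 54.6 CPM. Ikbkb was at 382 and 202 CPM and Irak1 at 487 and 307 CPM. How far these calls rest on replicate 1 was not tested. Only Myd88 (0.95, adjusted p = 0.0186) and Map3k14 (-1.47, adjusted p = 0.00654) passed in the libraries labelled Gata2, where 4.48% of all genes rose and 4.82% fell.

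A further list of 30 known NF-kB target genes outside the 36, of which 29 were tested in LSK cells, was mostly negative at Day2. The log2 fold change was negative in 24 of 29 (50.1% of all genes), with a median of -0.34, and 8 were separated in the lower direction and 2 in the higher (11.1% and 9.96%). At an unadjusted p under 0.05, 1 was lower and 1 higher, against 2.79% and 2.8% of all genes. The lowest p belonged to Ier3, an immediate early stress gene, at 80.8, 84.9 and 89.7 CPM in Day2_WT and 32.6 and 28.0 CPM in Day2_Gata2. Its log2 fold change was -1.49 (SE 0.15, BH-adjusted p = 0.0572), which edgeR did not call. Il12b and Csf2 came next, in opposite directions, and both were below 1 CPM in every Day2 library. Il12b was at 0 CPM in Day2_WT and at 0.929 and 0.0986 CPM in Day2_Gata2. Csf2 was at 0.152 to 0.668 CPM against 0.0198 and 0.0789 CPM. At Day0 the list was even, with 14 positive and 15 negative, Ier3, Slc2a6 and Cxcl16 having the lowest p (adjusted p = 0.341, 0.341 and 0.343).

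From Day0 to Day2 this list moved in both directions. In WT 6 rose (Ccl9, Bcl2l1, Slc2a6, Gpr84, Cxcl3 and Vcam1) and 6 fell (Irf1, Csf1, Map3k8, Marcksl1, Bcl2a1a and Ccl5), against 11.9% and 17.9% of all genes. Ccl9 (1.25) and Bcl2l1 (0.81) also rose in the libraries labelled Gata2, and Ier3 (-1.40), Irf1 (-1.08), Csf1 (-2.61), Marcksl1 (-1.30) and Map3k8 (-1.49) fell, against 4.48% and 4.82% of all genes. Csf1, the macrophage growth factor, went from 34.4 and 20.5 CPM to between 3.23 and 5.46 CPM in WT and from between 13.0 and 22.6 CPM to 3.32 and 2.86 CPM in the libraries labelled Gata2. Ccl9, a myeloid chemokine, went from 84.5 and 93.8 CPM to between 263 and 414 CPM in WT. Within the CC chemokines, Ccl9 thus rose while Ccl3 and Ccl4 fell. At Week2 none of the 30 passed, and 20 were positive and 10 negative (49.9% of all genes were negative).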

How the data were processed

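The authors deposited raw read counts per gene and library, whole numbers in 1 table of 45706 Ensembl gene IDs and 16 libraries. Per the submitters' processing notes, Trimmomatic 0.38, STAR 2.5.2b and the genome build mm10 were used. How reads were counted, with what strand setting and annotation, is not given in the sources used here. Per the labels' protocols either of a pair of library kits was used, with the kit of each sample not stated. Total counts per library ran from 19618830 to 320717267.

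Symbols and exon lengths came from GENCODE M21, which matched 45143 IDs. CPM were computed here with TMM scaling. edgeR 4.0.16 (R 4.3.3, filterByExpr, robust quasi-likelihood test, Benjamini-Hochberg adjusted p under 0.05 over all genes tested) was fitted to the 10 LSK libraries as 4 groups and to the 6 Week2 libraries as 2. Its recovery of known changes was tried on simulated data, and the outcome is not given here. The SE given with an edgeR log2 fold change is its absolute value divided by the square root of the test's F statistic. It is thus derived from the test and was not measured directly between libraries. Covariates, other scalings and filters, DESeq2 1.42.0, limma 3.58.1 (voom) and leaving out each library were alternatives. Genes were named in each comparison if called or among the 8 members of lowest p, and from the other lists if called or among the 3 of lowest p. The members and lists were chosen with earlier results of these data known.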

Additional observations from a re-analysis of the deposited data

How the results depend on the processing

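The members' median kept its sign under all alternatives run, and among the genes named in each comparison the direction reversed as follows. At Day0, Nfkb1 and Nfkb2 went to 0.21 and 0.13 with the share of counts on TEC genes as a covariate and to 0.086 and 0.12 with that on repeat-rich genes. In WT over time, Bcl2a1b and Bcl2a1d went to 1.68 and 1.33 with the TEC share and to 1.06 and 0.68 with the repeat share. Nfkb1 in the difference between the Day2 and Day0 genotype effects went to -0.27 with the TEC share. At Week2, Ptgs2 went to 0.50 with limma voom, 0.59 with the replicate block and between -1.81 and 1.90 without single libraries. The cause was not tested.

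Counts of the 36 genes called differed as follows. DESeq2 called 4 at Day0 (1.99% of all genes), 10 at Day2 (0.751%) and 19 over time in the libraries labelled Gata2 (17.9%). It called 2 for the Day2 against Day0 effect (1.15%) and 1 for the added Week2 against Day2 effect (0.151%). limma voom called 13 at Week2 (35.3% of all genes), 1 at Day2 (0.12%), 3 for the added effect (1.43%) and 5 over time in WT (7.07%). The TEC share gave 1 at Day2 (0.0887% of all genes) and 18 over time in the libraries labelled Gata2 (26.3%), no filter on low counts gave 1 at Day2 (0.0602%), and the repeat share gave 1 over time in WT (0.903%). Fitting only the groups compared gave 6 over time in WT (6.81%) and 24 in the libraries labelled Gata2 (31.9%). For the highest counts in the next sentence, the shares of all genes are given above with each comparison. Leaving out single libraries gave 0 to 18 at Day0, 0 to 3 at Day2, 7 to 26 over time in WT, 5 to 24 in the libraries labelled Gata2, 0 to 13 for the Day2 against Day0 effect, and 0 throughout for Week2 and for the added effect.

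The members' median log2 fold change moved beyond the spread as follows. At Day0 it was -0.37 with the filter of 5 CPM in 2 libraries, -0.16 with no filter, -0.18 with the repeat share and -0.37 with the replicate block. At Day2 it was -0.66 with the 5 CPM filter and -0.59 with the block. Over time in WT it was -0.50 with DESeq2, -0.50 with RLE scaling, -0.56 with upper quartile scaling, -0.24 with the TEC share, -0.59 with the 5 CPM filter, -0.21 with voom and -0.14 with the repeat share. In the libraries labelled Gata2 it was -0.79 with the TEC share and -1.08 with no filter. For the Day2 against Day0 effect it was -0.54 with the TEC share, -0.30 with the 5 CPM filter, -0.57 with voom, -0.53 with no filter, -0.51 with the repeat share, -0.54 with sex and -0.31 with upper quartile scaling. It was 0.53 at Week2 with voom, and 0.87 with voom and 0.86 with the block for the added effect. Without single libraries it ranged from -0.33 to -0.13 at Day0, -0.91 to -0.59 at Day2, and 0.059 to 0.45 at Week2. The ranges were -0.47 to -0.25 and -1.17 to -0.87 over time in WT and in the libraries labelled Gata2, -0.70 to -0.34 for the Day2 against Day0 effect, and 0.69 to 1.22 for the added effect. The alternatives for the added effect were chosen after seeing the data.

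Groups share replicate numbers, but same-numbered libraries did not all deviate together. The correlations of their deviations were 0.75, -0.76 and 0.55 at Week2, so the numbers were not taken as pairs. With the replicate block 8 genes were called over time in WT (14.3% of all genes), 7 in the libraries labelled Gata2 (3.89%) and 0 in each genotype comparison. Cxcl1, Cxcl2, Il1a, Cd40, Il6 and the Bcl2a1 copies rested on few reads in some groups, where depth limits their fold changes.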
